A study of Homo sapiens with 6 samples.

Results

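The late step of definitive endoderm (DE) differentiation was described by comparing the 2 DE libraries with the 2 libraries of differentiation day 2 (D2), which are 4 of the 6 RNA-seq libraries of the series. Its members were all genes not encoded by mitochondrial DNA (mtDNA) kept by edgeR's filter on counts, 18100 of the 18126 genes tested and of the 59050 gene symbols in the count table. All cells were of HUES8, a human embryonic stem cell line in wide use, with no genetic change named for any group. PSC libraries came from undifferentiated HUES8 cells kept in mTeSR1 on Matrigel. D2 cells had been differentiated for 2 days in DMEM-F12 with 0.2% BSA and activin A at 100 ng/mL, together with CHIR99021 for the first 24 h, and DE cells received the same treatment followed by further days without CHIR99021. For CHIR99021 the labels state 2.5 mM, then 2 to 4 days without the inhibitor, the study's methods give micromolar for the same figure and a slightly different range of days, and the labels name no day for the DE libraries. Since CHIR99021 was taken away after 24 h, its removal came before the harvest of both stages. RNA was taken from what precipitated during a metabolite extraction, and the labels name no sorting of the cells, so each library is a whole culture. Fewer cells of a type and less RNA per cell cannot be told apart in such data.

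Activin A is a TGF-beta family ligand that acts through the same receptors and SMAD proteins as NODAL, the signal that specifies endoderm in the embryo. CHIR99021 inhibits the kinase GSK3, which frees beta-catenin to switch on WNT target genes, and a short pulse of it pushes pluripotent cells into a state like that of the primitive streak. Cells leaving that state toward endoderm keep *EOMES* and NODAL signaling for a time and switch on *SOX17*, *FOXA2* and the chemokine receptor *CXCR4*. From definitive endoderm arise the linings of the gut and lung, the liver and the pancreas.

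The total counts were 15000970 and 14843365 in the D2 libraries, 15490713 and 15970973 in the DE libraries and 12351684 and 15849872 in the PSC libraries. Genes encoded by mtDNA took 25.8% and 25.7% of the counts at D2 and 20.9% and 22.8% in DE. With TMM factors computed without these genes 5190 genes were called, and the named genes that were tested all kept their side of the call, whereas the TPM-based rule below did change. Libraries of the same stage were further apart than counting noise alone allows, the chi-square divided by its degrees of freedom being 3.98 between the D2 libraries and 8.47 between the DE libraries, against 85.5 to 93.9 between a D2 and a DE library. Among the 9314 genes with a mean of at least 10 CPM (TMM-normalized counts per 1000000) at D2 or in DE, the median gap between the libraries of a stage was 0.11 at D2 and 0.13 in DE on the log2 scale, against a median fitted change of 0.59 in size over all genes tested. The labels do not say whether the libraries of a stage came from separate cultures, and p-values measure only the spread between these libraries, which may be technical.

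A gene was called when edgeR's quasi-likelihood test gave an adjusted p (Benjamini-Hochberg, over all genes tested) under 0.05 and the fitted fold change between DE and D2 was at least 2. Of the 18100 genes 5164 (28.5%) were called, 2254 (12.5%) higher in DE and 2910 (16.1%) lower. Those shares, 12.5% and 16.1%, are the background over genes of all levels for the counts of called genes below. The share called lower was larger among genes at low levels (25.1% under 10 CPM) than at 10 CPM and over (7.61%). A list of mostly low-level genes can thus exceed 16.1% called lower without differing from other genes at its level. With no limit on the fold change 10740 genes (59.3%) differed, of which 5432 genes (30.0%) rose and 5308 (29.3%) fell, and the median log2 fold change over all genes was -0.02. Both DE libraries lay above both D2 libraries for 38.5% of the genes and below them for 40.1%, and 8 of the called genes had overlapping stages. Under upper-quartile scaling 33.4% of the called genes were higher in DE, against 43.6% with TMM, since that scaling moved the median of all genes to -0.19. The fold-change rule of the study on TPM + 0.1, for genes with a mean TPM above 2, makes no test. Of 13405 genes it called 3596, and 58.1% of those were higher in DE. With TPM scaled without mtDNA-encoded genes, 17775 genes were compared, and 38.3% of 5745 called were higher. The scaling and the set of genes changed together there, so their parts cannot be told apart. Which direction held more genes thus depended on the rule. Under every scaling tried with edgeR and the 2-fold limit more genes were called lower, with 33.4% to 44.3% of the calls higher. Where both libraries of a stage had 0 counts, the fold change was computed against 3 counts in each library and is given as a lower bound. Where they had at most 3 counts each, the ratio of the summed counts per library size is given with its exact (Clopper-Pearson) 95% interval, which covers counting error only.

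Level divided the calls. Among the 9314 genes that reached a mean of 10 CPM at either stage, 1167 (12.5%) were called higher and 709 (7.61%) lower. Below that level the order was the other way round, with 1087 of 8786 genes (12.4%) called higher and 2201 (25.1%) lower. The share called lower fell from 30.4% of genes between 1 and 3 CPM to 4.35% of genes at 100 CPM and over, whereas the share called higher stayed between 12.1% and 14.9% in all classes from 1 CPM upward. Protein-coding genes taken alone had the same order, with 12.4% higher and 6.91% lower at 10 CPM and over and 13.1% higher and 23.2% lower under it. Of the 2910 genes called lower, 413 had at most 3 counts in each DE library. The D2 libraries held counts for 29156 and 29530 gene symbols and the DE libraries for 27609 and 27200, with similar totals.

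**Figure D1:**
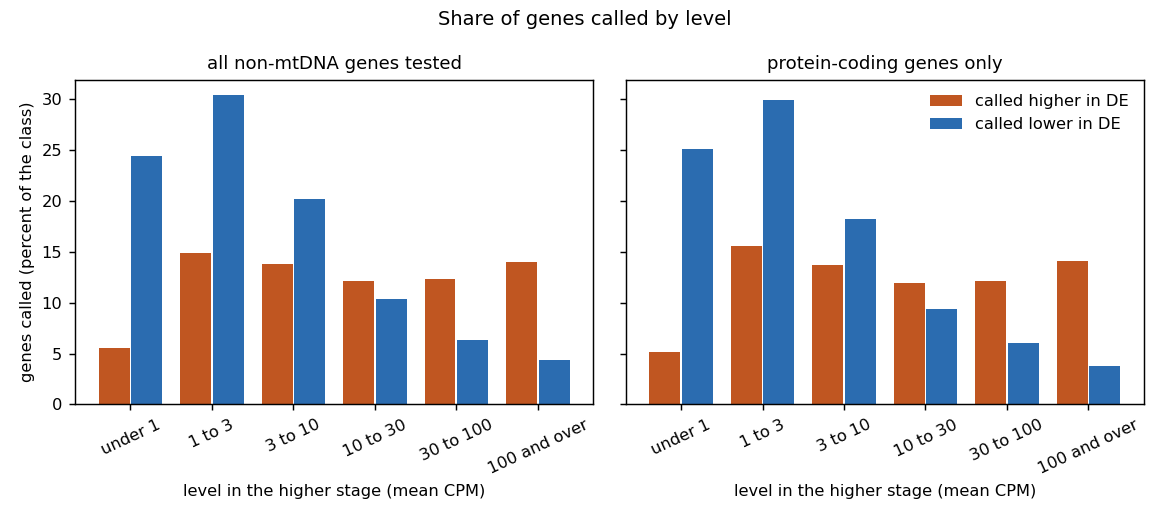
Share of genes called higher (orange) and lower (blue) in DE than at D2, as a percent of the genes in each class of level, for all non-mtDNA genes tested (left) and protein-coding genes (right). The class is set by the mean CPM of the stage where the gene was higher. Lower calls outnumbered higher calls under 10 CPM and were fewer than them above it.

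**Figure D2:**
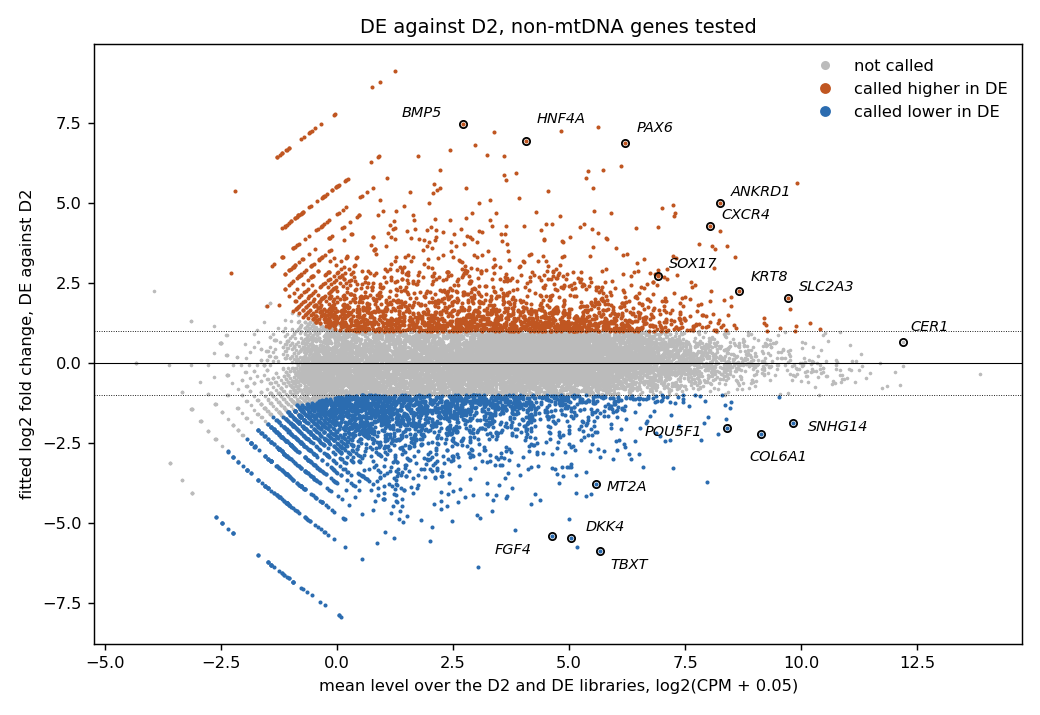
Fitted log2 fold change of DE against D2 (vertical axis) and mean level over the 4 libraries (horizontal axis, log2 of CPM + 0.05) for the 18100 non-mtDNA genes tested, each point a gene. Dotted lines mark a 2-fold change, and circles mark 16 genes described in the text, from *BMP5* at 7.47 to *TBXT* at -5.87.

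The labels of the stages were checked first with *CXCR4* and *SOX17*. *PAX6*, from the neuroectoderm list and also among the largest rises of these data, is given beside them and does not check the labels. *CXCR4* (chromosome 2, 136114349 to 136119177, GRCh38), the receptor of the chemokine CXCL12 and a surface marker used to sort DE cells, was at 1.84 and 2.83 CPM in PSC, 25.4 and 26.5 CPM at D2 and 474 and 529.8 CPM in DE. It rose about as strongly in each DE library, with no overlap between stages (log2 fold change 4.27, standard error 0.117, edgeR adjusted p = 1.9e-21). *SOX17* (chromosome 8, 54457935 to 54460892), a transcription factor required for endoderm, was at 0 and 0.386 CPM in PSC, 34.4 and 28.8 CPM at D2 and 232 and 188 CPM in DE. Both DE libraries exceeded both D2 libraries, though they also differed from each other (log2 fold change 2.74, standard error 0.126, edgeR adjusted p = 1.2e-16). *PAX6* (chromosome 11, 31784779 to 31817961), a transcription factor best known for eye, forebrain and pancreatic islet development, was at 1.93 and 2.19 CPM in PSC, 0.984 and 1.49 CPM at D2 and 148 and 146 CPM in DE. It was low at both earlier stages and high in both DE libraries (log2 fold change 6.88, standard error 0.158, edgeR adjusted p = 1.2e-22). Without strand information in the sources used here, reads of overlapping genes on the other strand cannot be told apart from those of a named gene.

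**Figure D3:**
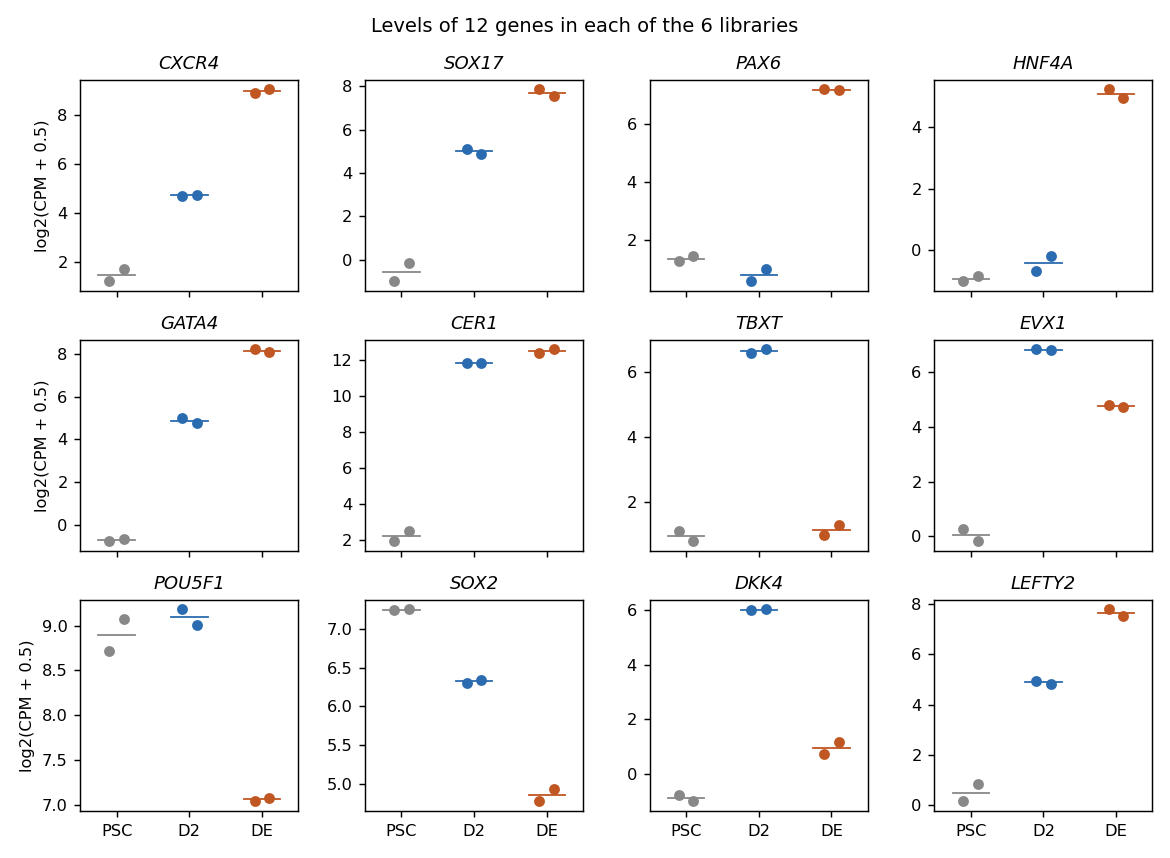
Levels of 12 genes in each of the 6 libraries, as log2(CPM + 0.5), with PSC in grey, D2 in blue and DE in orange. Points are libraries, short lines are the stage means, and each panel has its own vertical range. The DE and D2 points are apart in all 12 panels, *TBXT* and *DKK4* are high only at D2 among the stages, and *PAX6* and *HNF4A* are high only in DE.

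Most genes of the definitive endoderm list rose in DE. Of its 20 members tested, 17 (85%) were called higher and 1 lower, against 12.5% and 16.1% of all genes, with a median log2 fold change of 2.12 against -0.02. The list as a whole summed to 4244 and 4273 CPM at D2 and 8175 and 8818 CPM in DE, and most of that sum was *CER1*. *GATA4* (chromosome 8, 11676959 to 11760002), a zinc-finger factor of endoderm and heart, was at 31.8 and 26.5 CPM at D2 and 297 and 275 CPM in DE, so that the stages were far apart (log2 fold change 3.29, standard error 0.108, edgeR adjusted p = 7.0e-20). *FOXA2* (chromosome 20, 22580998 to 22585455), a pioneer factor that opens chromatin at endoderm genes, was at 29.9 and 29.8 CPM at D2 and 122 and 99.5 CPM in DE (log2 fold change 1.89, standard error 0.112, edgeR adjusted p = 2.9e-14), and *GATA6* was at 40.0 and 44.0 CPM at D2 and 160.2 and 139 CPM in DE (log2 fold change 1.83, standard error 0.102, edgeR adjusted p = 8.3e-15). These factors were already above their PSC level at D2, with *GATA4* at 0.0876 and 0.129 CPM in PSC.

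A second group of endoderm genes was close to absent at D2 and appeared in DE. *HNF4A* (chromosome 20, 44355699 to 44432845), a nuclear receptor that drives hepatocyte and gut genes, had 2 and 6 counts at D2 and 601 and 463 counts in DE, or 0.131 and 0.389 CPM at D2 and 36.6 and 29.8 CPM in DE (log2 fold change 6.95, standard error 0.271, edgeR adjusted p = 3.1e-18). *VIL1*, which encodes the microvillus protein villin, had 12 and 13 counts at D2 and 524 and 420 counts in DE (log2 fold change 5.16 (standard error 0.210)). The D2 level of both genes rested on 13 counts or fewer in each library, and without D2 replicate 2 the log2 fold change of *HNF4A* was 7.90. *PRDM1* (log2 fold change 2.77 (standard error 0.106)), *TRPA1* (3.34), *FOXA3* (2.38), *HHEX* (2.23), *KIT* (2.01), *FOXA1* (1.77), *ELF3* (1.60), *KLF5* (1.21) and the epithelial adhesion gene *EPCAM* (1.13) were also called higher. *EPCAM* (0.96) was not called with upper-quartile scaling.

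Members that did not follow that order were *CER1*, *FLRT3* and *CD177*. *CER1* (chromosome 9, 14719724 to 14722733), a secreted inhibitor of NODAL, BMP and WNT, was the most abundant member at both stages, with 3625 and 3652 CPM at D2 and 5433 and 6167 CPM in DE. It rose by less than 2-fold (log2 fold change 0.67, standard error 0.133, edgeR adjusted p = 9.6e-05), and per gene length it stood at 6019.8 TPM at D2 and 10272 TPM in DE. *FLRT3*, a membrane protein of the anterior streak and endoderm, also rose by less than 2-fold (log2 fold change 0.79 (standard error 0.0926)). *CD177*, a surface marker used for a subset of endoderm cells, fell from 26 and 28 counts at D2 to 1 and 4 counts in DE (log2 fold change -3.42 (standard error 0.647), from -4.66 to -2.72 with either DE library left out), and *RIPPLY1* had too few counts to be tested.

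Most primitive streak genes fell. Of 11 members tested, 0 were called higher by edgeR or DESeq2 (2 had an unadjusted p under 0.05) and 7 (63.6%) lower, with a median log2 fold change of -1.16. *TBXT* (chromosome 6, 166157656 to 166168700), the T-box factor brachyury that marks streak and nascent mesoderm, was at 1.66 and 1.22 CPM in PSC, 95.2 and 104 CPM at D2 and 1.46 and 1.93 CPM in DE. The DE libraries were back near the PSC level, and the stages were far apart (log2 fold change -5.87, standard error 0.157, edgeR adjusted p = 1.4e-21). *EVX1*, a homeobox factor of the posterior streak, was at 113 and 111 CPM at D2 and 27.2 and 26.1 CPM in DE (log2 fold change -2.07, standard error 0.102, edgeR adjusted p = 5.2e-16). *EOMES* (chromosome 3, 27715949 to 27722711), the T-box factor required for endoderm, was the most abundant member at both stages, at 467 and 505 CPM at D2 and 361 and 327 CPM in DE. It fell by less than 2-fold (log2 fold change -0.50, standard error 0.0983, edgeR adjusted p = 8.9e-05), and so did the homeobox gene *MIXL1* (log2 fold change -0.63 (standard error 0.101)). *GSC*, a homeobox gene of the anterior streak and organizer, rose by less than 2-fold (log2 fold change 0.81 (standard error 0.125)), as did *FGF8* (0.90). The other called members were *FGF4* (-5.42), *WNT3* (-1.33), *TBX6* (-1.16), *LHX1* (-1.07) and *HOXB1*, which was 19.8-fold (95% interval 3.15 to 823) lower, with 0 and 1 counts in DE. *MESP1*, *MESP2* and *MSGN1* had too few counts to be tested. Left out singly, a library ended the call of *TBX6* (-0.79 without D2 replicate 1) and *LHX1* (-0.93 without DE replicate 2). *TBX6* (adjusted p = 0.065) was not called with DESeq2.

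The pluripotency list was divided. Of 24 members, all tested, 11 (45.8%) were called lower and 0 higher by edgeR or DESeq2, while 4 rose by less than 2-fold, also at an unadjusted p under 0.05. The list summed to 5935 and 5839 CPM at D2 and 4075 and 4078 CPM in DE. *POU5F1* (chromosome 6, 31164337 to 31180731), which encodes OCT4, was at 420.1 and 540.0 CPM in PSC, 581 and 513 CPM at D2 and 131 and 135 CPM in DE. It did not fall below its PSC level until after D2 (log2 fold change -2.04, standard error 0.117, edgeR adjusted p = 1.5e-14), with reads that near-identical pseudogenes could share. *ZFP42*, which encodes REX1, had the largest fall of the list (log2 fold change -3.47 (standard error 0.138)), and the embryonic stem cell transcript *ESRG* (-2.22), *ZSCAN10* (-2.16), *DPPA2* (-1.86) and *DPPA4* (-1.68) were called lower too. *SOX2*, the partner of OCT4, was at 78.6 and 80.7 CPM at D2 and 26.8 and 29.9 CPM in DE (log2 fold change -1.49, standard error 0.101, edgeR adjusted p = 6.0e-13), and *NANOG*, whose pseudogenes could likewise share its reads, was at 118 and 126 CPM at D2 and 58.1 and 57.1 CPM in DE (log2 fold change -1.08, standard error 0.0996, edgeR adjusted p = 3.2e-10). The RNA-binding gene *LIN28A* went the other way, at 341 and 330.4 CPM at D2 and 678 and 575 CPM in DE (log2 fold change 0.90, standard error 0.118, edgeR adjusted p = 2.4e-07), as did *SALL4* (log2 fold change 0.95 (standard error 0.104)). *TDGF1*, the NODAL co-receptor CRIPTO, was at 404 and 432 CPM at D2 and 459 and 485 CPM in DE (log2 fold change 0.18, standard error 0.102, edgeR adjusted p = 0.14), a difference that did not pass the test.

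Most lists of markers of other lineages had calls in both directions. Of the 25 neuroectoderm genes 14 were tested, of which 5 were called higher and 5 lower, with a median log2 fold change of -0.11, which was 0.32 without D2 replicate 1, 0.36 without DE replicate 1, -0.23 without DE replicate 2 and 0.08 without PSC replicate 2. The list summed to 422 and 408 CPM at D2 and 1018 and 1006 CPM in DE, with *NES* the most abundant member at D2 and *OTX2* in DE. Beside *PAX6*, the homeobox gene *OTX2*, which head endoderm and forebrain share, was at 136 and 139.9 CPM at D2 and 579 and 582 CPM in DE (log2 fold change 2.07, standard error 0.101, edgeR adjusted p = 4.5e-16), and *SOX11*, *OTX1* and *HESX1* were called higher (log2 fold changes 1.83, 1.63 and 1.20). *FEZF1*, *ZIC4*, *SOX3*, *LHX5* and *ZIC1* were called lower (log2 fold changes -2.59, -1.95, -1.56, -1.56 and -1.41). The neural plate gene *SOX1* had 3 and 0 counts at D2 and 1 and 0 counts in DE, and the eye-field genes *RAX*, *SIX6* and *LHX2* had at most 4 counts in any of these libraries. These members were at or near 0 in the DE libraries where *PAX6* and *OTX2* were high, and the part of neural cells in the *PAX6* level was not tested. *SOX21* (chromosome 13, 94709622 to 94712545), a SOXB2 factor of neural and foregut epithelium outside that list, was 119-fold (95% interval 46.3 to 439) higher in DE (1 and 3 counts at D2 and 262 and 235 counts in DE). *SOX3* (-1.17 without DE replicate 2) lost its call with that library left out. *SOX3* (adjusted p = 0.054) was not called with DESeq2.

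Of 12 mesoderm genes tested 3 were called higher and 5 lower. *KDR*, the VEGF receptor of blood and vessel precursors, was at 176 and 174 CPM at D2 and 17.5 and 19.2 CPM in DE (log2 fold change -3.25, standard error 0.106, edgeR adjusted p = 6.6e-20), and *TBX5* and *TBX20*, T-box genes of the heart, were lower as well (log2 fold changes -3.58 and -2.41). *ISL1*, a LIM homeobox factor of heart, pancreas and amnion, was at 4.13 and 3.63 CPM at D2 and 40.8 and 38.7 CPM in DE (log2 fold change 3.35, standard error 0.149, edgeR adjusted p = 5.8e-17), and *NKX2-5* (2.22) and *FOXC1* were also called higher. *MSGN1*, *MEOX1* and *MEOX2* were at 0 in all 4 libraries. Among blood and endothelium markers *LMO2* and *ERG* were called lower, *ERG* 18.8-fold (95% interval 2.96 to 781), and *CDH5* and *TIE1* had at most 4 counts in any of these libraries. In the trophoblast and amnion list, with 9 tested and a median log2 fold change of -0.75, *GATA3* (4.06) and *ISL1* were called higher and *TFAP2A* (-1.93), *GATA2* (-3.01) and *CDX2* lower, *CDX2* 26.0-fold (95% interval 4.26 to 1069.5), while *CGA*, *ELF5* and *KRT23* had at most 1 count. In the neural crest list *SOX10* (1.80) and *PAX7* (1.60) were called higher and *MSX1* (-4.05), *SOX9* (-3.58), *NGFR* (-3.05), *TFAP2A* and *SNAI2* (-1.55) lower. Of its 9 members tested, 55.6% were called lower and 22.2% higher, with a median log2 fold change of -1.55. That median was -0.35 among members with at least 10 counts in every D2 and DE library. Primordial germ cell markers had 3 called members, *PRDM1*, *SOX17* and *KIT*, all shared with the endoderm list, and *DND1* was at 0 in all 4 libraries. *FOXC1* (0.88 without D2 replicate 1), *LMO2* (-1.54 without DE replicate 2) and *SNAI2* (-1.15 without DE replicate 1) lost their calls with that library left out. *FOXC1* (0.83) was not called with upper-quartile scaling. *LMO2* (adjusted p = 0.051) was not called with DESeq2.

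Extraembryonic endoderm shares many genes with definitive endoderm, and its list of markers also holds *HNF4A*, described above. Of 8 tested, *HNF4A* and *DAB2* (2.36), an endocytic adaptor, were called higher, and *AMN* (-1.12), *LRP2* (-2.15), *NID2* (-1.47) and *AFP* lower. *AFP*, alpha-fetoprotein, had 9 and 8 counts at D2 and 1 in each DE library, 8.86-fold (95% interval 2.10 to 79.0) lower. *SOX7* had 1 and 7 counts at D2 and 1 and 2 counts in DE, *TTR* had 0 and 0 counts at D2 and 0 and 2 counts in DE, and *APOA4* was at 0. Regional factors of the gut tube were mixed, with 5 of 15 called higher and 6 lower. *NKX2-1*, a homeobox gene of lung and thyroid, went from 4 and 1 counts to 143 and 123 (log2 fold change 5.60 (standard error 0.402), 6.83 without D2 replicate 1 and 4.94 without D2 replicate 2), and *MNX1*, of pancreas and notochord, from 29 counts in each D2 library to 172 and 155 (2.43). *TBX3* (1.33) was called higher as well, while *SOX9*, *CDX2*, *ONECUT1* (-1.91), *PAX8* (-1.47) and *PROX1* (-1.18) were called lower. The pancreatic gene *PDX1* was at 0 in all 4 libraries. *AMN* (-0.57 without D2 replicate 1), *PAX8* (-1.33 without D2 replicate 1) and *PROX1* (-0.77 without DE replicate 2) lost their calls with that library left out. *AMN* (adjusted p = 0.092) and *PAX8* (adjusted p = 0.12) were not called with DESeq2.

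WNT signaling was read through its target genes, ligands, receptors, antagonists and core. Of 21 feedback and target genes tested 10 (47.6%) were called lower and 3 (14.3%) higher, with a median log2 fold change of -0.79. *DKK4* (chromosome 8, 42374063 to 42377229), a secreted WNT antagonist that beta-catenin switches on, was at 0.0876 and 0 CPM in PSC, 64.0 and 64.9 CPM at D2 and 1.16 and 1.74 CPM in DE. It was near 0 in PSC, high at D2 and low again in DE (log2 fold change -5.48, standard error 0.174, edgeR adjusted p = 3.6e-20). *LEF1*, a DNA-binding partner of beta-catenin, was at 5.12 and 5.63 CPM at D2 and 0.304 and 0.0643 CPM in DE (log2 fold change -4.78, standard error 0.425, edgeR adjusted p = 1.7e-10), and its log2 fold change was -6.19 without DE replicate 1 and -4.09 without DE replicate 2. *APCDD1*, a membrane inhibitor of WNT, was at 47.2 and 44.2 CPM at D2 and 7.98 and 8.49 CPM in DE (log2 fold change -2.47, standard error 0.130, edgeR adjusted p = 1.9e-15). *DKK1*, the related antagonist, was at 117 and 136 CPM at D2 and 39.1 and 49.2 CPM in DE, against 0.438 and 0.386 CPM in PSC (log2 fold change -1.52, standard error 0.108, edgeR adjusted p = 1.8e-12). *MSX1*, *RNF43* (-2.38), *NKD1* (-1.50), *CCND1* (-1.26), *NOTUM* (-1.21) and *SP8* (-1.07) were the other falls. *SP8* (-0.89 without DE replicate 2) lost its call with that library left out.

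Not every WNT target fell. *AXIN2* (chromosome 17, 65528563 to 65561648), the scaffold of the beta-catenin destruction complex and a common readout of the pathway, was at 46.6 and 46.4 CPM at D2 and 72.7 and 73.3 CPM in DE and rose by less than 2-fold (log2 fold change 0.65, standard error 0.0958, edgeR adjusted p = 1.5e-06). *LGR5*, the R-spondin receptor of intestinal stem cells, was at 4.59 and 5.63 CPM at D2 and 41.3 and 42.2 CPM in DE (log2 fold change 3.03, standard error 0.143, edgeR adjusted p = 2.0e-16), and *MSX2* (1.59) and *NKD2* (1.58) were called higher. *SP5*, a zinc-finger repressor of WNT targets, was at 46.2 and 41.9 CPM at D2 and 33.0 and 32.8 CPM in DE and fell by less than 2-fold (log2 fold change -0.42, standard error 0.112, edgeR adjusted p = 0.002). 

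The bases before the start of *SP5* and *DKK1* are shown because both genes are direct WNT targets, one of which changed little and the other by more than 2-fold. They come from RefSeq (GRCh38.p14) and are the 250 bases before the gene's start, at chr2:170715087-170715336 for *SP5* and chr10:52314031-52314280 for *DKK1*, both on the plus strand, read 5′ to 3′, and capitals mark CTTTGA or its reverse complement TCAAAG, the core that TCF and LEF factors bind.
SP5: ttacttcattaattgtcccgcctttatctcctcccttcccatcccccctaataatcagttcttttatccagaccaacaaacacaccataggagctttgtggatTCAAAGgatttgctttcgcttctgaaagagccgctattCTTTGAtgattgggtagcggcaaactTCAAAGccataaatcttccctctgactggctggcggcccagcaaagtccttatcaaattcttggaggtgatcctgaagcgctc
DKK1: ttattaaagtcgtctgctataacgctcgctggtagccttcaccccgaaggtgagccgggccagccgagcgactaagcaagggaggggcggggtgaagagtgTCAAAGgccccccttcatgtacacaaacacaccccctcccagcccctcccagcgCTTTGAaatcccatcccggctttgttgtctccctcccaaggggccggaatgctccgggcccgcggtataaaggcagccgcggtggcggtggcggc
There were 3 matches in the stretch of *SP5*, at 147, 109 and 83 bases before the start, and 2 in that of *DKK1*, at 149 and 95 bases. On either strand the letters occurred in 11.2% of 35116 promoters of that length. *SP8* had 1 match, and *LEF1*, *APCDD1*, *MSX1*, *RNF43*, *MSX2*, *NKD2* and the streak genes *TBXT* and *EVX1* had 0 in this window. *DKK4*, *NKD1*, *NOTUM*, *LGR5*, *CCND1* and *AXIN2* have no entry in the table used.

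The called WNT ligands were all lower in DE and most called receptors higher. Among 30 tested, the ligands *WNT5A* (-4.14), *WNT9B* (-2.37), *WNT5B* (-2.38), *WNT3A* (-1.72), *WNT3* and *WNT8A* (-1.05) were called lower, as were the receptor *FZD10* (-3.78) and the agonist *RSPO3*, the last 8.08-fold (95% interval 2.85 to 31.5). *WNT5A*, a ligand of the branch that does not use beta-catenin, was at 22.8 and 24.9 CPM at D2 and 1.64 and 1.03 CPM in DE. Of the 10 WNT ligands tested 0 were called higher by edgeR or by DESeq2, and 0 had an unadjusted p under 0.05 in that direction. The called rises were the acyltransferase *PORCN*, which lipidates WNT proteins, the WNT carrier *WLS* (1.94) and the receptors *FZD4* (2.43), *FZD5* (2.20), *ROR2* (1.36), *LGR4* (1.22) and *LGR5*. *PORCN* (chromosome X, 48508959 to 48520814) was at 3.81 and 3.63 CPM at D2 and 78.7 and 73.1 CPM in DE, with little difference within a stage (log2 fold change 4.35, standard error 0.138, edgeR adjusted p = 3.6e-20). Of 14 antagonists tested, *FRZB* (4.30), *SFRP1* (2.81), *SHISA2* (1.23) and *SOSTDC1* (1.07) were called higher and *DKK4*, *SFRP2* (-2.54), *DKK1*, *NOTUM* and *TPBG* (-1.06) lower. *SFRP1*, a secreted decoy receptor, was at 26.0 and 27.8 CPM at D2 and 206 and 172 CPM in DE (log2 fold change 2.81, standard error 0.112, edgeR adjusted p = 4.3e-18). In the intracellular core of 15 genes only *APC* was called (log2 fold change 1.38 (standard error 0.0974)). Of the 15, 10 rose and 1 fell at an adjusted p under 0.05, against 30.0% and 29.3% of all genes. *WNT3A* (-1.18 without D2 replicate 1), *WNT8A* (-0.81 without D2 replicate 2), *SHISA2* (0.94 without DE replicate 1), *SOSTDC1* (0.58 without D2 replicate 2) and *TPBG* (-0.89 without DE replicate 2) lost their calls with that library left out. *SOSTDC1* (0.90) was not called with upper-quartile scaling. *WNT3A* (adjusted p = 0.15), *WNT8A* (adjusted p = 0.18) and *SOSTDC1* (adjusted p = 0.054) were not called with DESeq2.

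**Figure D4:**
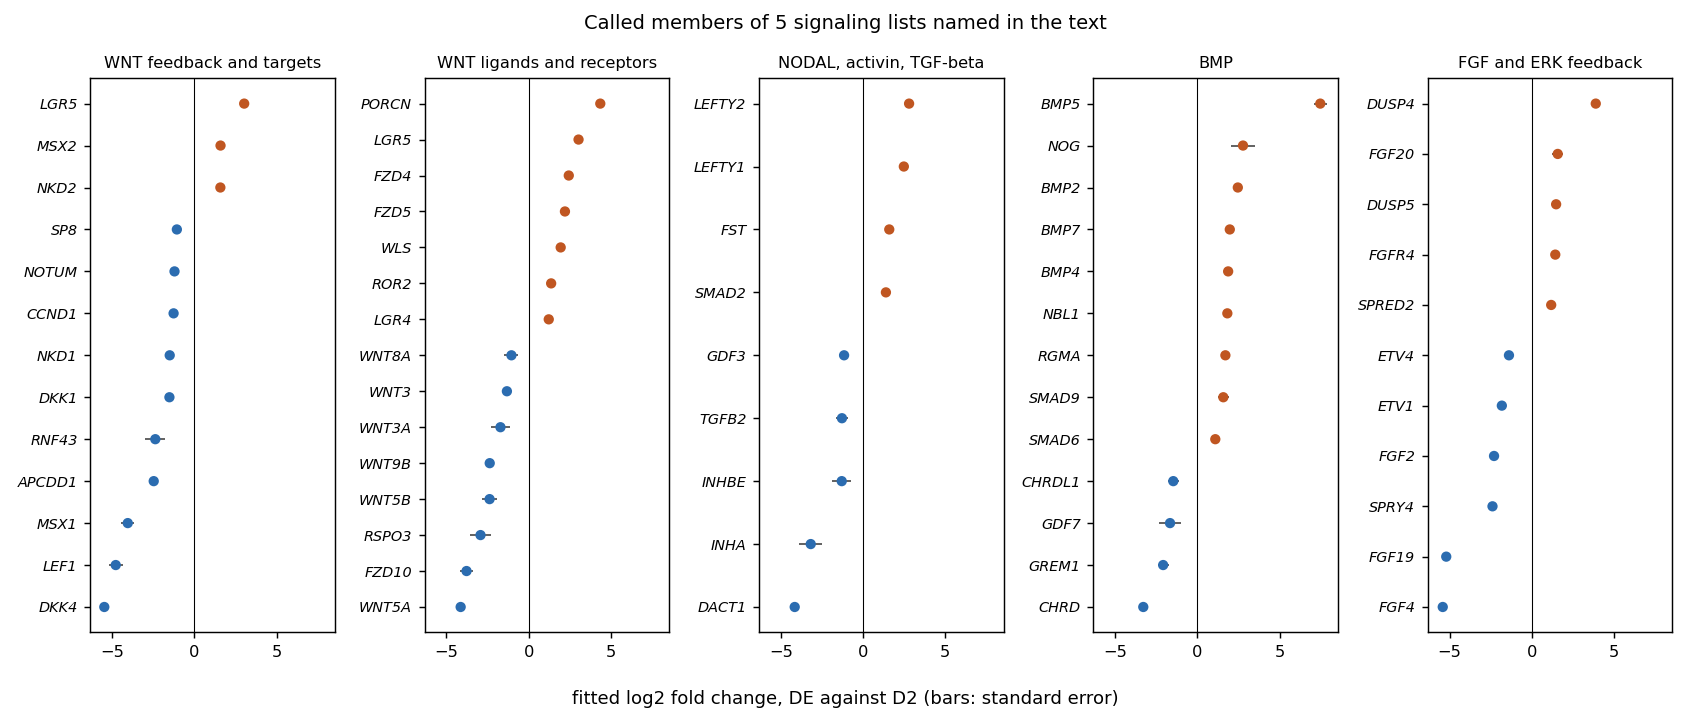
Fitted log2 fold changes of DE against D2, with standard errors as bars, for the called members of 5 signaling lists that the text names, orange where higher and blue where lower in DE. WNT ligands are all on the left and *PORCN*, *WLS* and most called receptors on the right. The BMP ligands *BMP5*, *BMP2*, *BMP7* and *BMP4* are on the right, and *FGF4* and *FGF19* are at the bottom of the FGF panel.

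In the NODAL and TGF-beta list 5 of 36 members tested (13.9%) were called higher and 5 lower, shares near the background. At an adjusted p under 0.05 with no fold limit 16 rose and 7 fell, against 30.0% and 29.3% of all genes. Both DE libraries lay above both D2 libraries for 22 members and below them for 7, against 38.5% and 40.1% of all genes. *LEFTY2* (chromosome 1, 225936598 to 225941383), a secreted inhibitor of NODAL, was at 30.0 and 28.0 CPM at D2 and 219 and 184 CPM in DE (log2 fold change 2.80, standard error 0.113, edgeR adjusted p = 6.7e-18), and *LEFTY1* was at 12.4 and 11.7 CPM at D2 and 69.1 and 65.2 CPM in DE (log2 fold change 2.48, standard error 0.127, edgeR adjusted p = 1.1e-15). *FST*, follistatin, which binds and neutralizes activin, was at 68.2 and 68.3 CPM at D2 and 207 and 204 CPM in DE (log2 fold change 1.59, standard error 0.0947, edgeR adjusted p = 3.3e-14). *NODAL* itself was at 111 and 107 CPM at D2 and 99.4 and 107 CPM in DE, a difference that did not pass the test (log2 fold change -0.07, standard error 0.106, edgeR adjusted p = 0.58). The signal transducer *SMAD2* (1.39) was called higher, and *DACT1*, an intracellular antagonist of WNT signaling, was at 76.7 and 78.7 CPM at D2 and 4.44 and 4.25 CPM in DE (log2 fold change -4.16, standard error 0.138, edgeR adjusted p = 7.9e-20). *GDF3* (-1.16), *TGFB2* (-1.29), *INHA* (-3.18) and *INHBE* (-1.30) were called lower. *GDF3* (-0.89 without DE replicate 1), *TGFB2* (-0.95 without DE replicate 1) and *INHBE* (-1.18 without D2 replicate 2) lost their calls with that library left out. *INHBE* (adjusted p = 0.20) was not called with DESeq2.

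Of 28 BMP genes tested, 10 (35.7%) were called higher and 4 (14.3%) lower, with a median log2 fold change of 0.73. *BMP5* (chromosome 6, 55753653 to 55875590), a ligand, had 2 and 0 counts at D2 and 206 and 209 counts in DE, which puts it 199-fold (95% interval 54.8 to 1649.8) higher in DE (edgeR adjusted p = 4.7e-15). *BMP2* was at 35.9 and 37.9 CPM at D2 and 217 and 187 CPM in DE (log2 fold change 2.45, standard error 0.103, edgeR adjusted p = 1.6e-17), and *BMP7* (1.96) and *BMP4* (1.87) rose too. Antagonists moved both ways. *NBL1* (1.82) and *NOG*, 7.20-fold (95% interval 2.54 to 28.1), were called higher, whereas *CHRD* (-3.29), *GREM1* (-2.09) and *CHRDL1* (-1.47) were called lower. The co-receptor *RGMA* (1.70), *SMAD9* (1.57) and the inhibitory *SMAD6* (1.08) were higher and the ligand *GDF7* (-1.67) lower. *SMAD6* (0.92 without DE replicate 1) and *GDF7* (-0.85 without D2 replicate 2) lost their calls with that library left out. *SMAD6* (0.91) was not called with upper-quartile scaling. *GDF7* (adjusted p = 0.15) was not called with DESeq2.

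More FGF genes fell than rose, and their feedback genes were split. Of 31 members 13 (41.9%) were called lower and 7 (22.6%) higher. *FGF4* (chromosome 11, 69771022 to 69775341), a ligand of streak and pluripotent cells, was at 1.84 and 3.35 CPM in PSC, 45.1 and 51.7 CPM at D2 and 0.974 and 1.29 CPM in DE (log2 fold change -5.42, standard error 0.200, edgeR adjusted p = 9.1e-19). *FGF19* (chromosome 11, 69698238 to 69704022), later known as a gut hormone of bile acid control, was at 14.8 and 15.4 CPM in PSC, 27.8 and 28.0 CPM at D2 and 0.913 and 0.579 CPM in DE (log2 fold change -5.20, standard error 0.205, edgeR adjusted p = 3.9e-18). *FGF2*, the growth factor that maintains human embryonic stem cells, was at 42.7 and 49.5 CPM at D2 and 10.3 and 8.43 CPM in DE (log2 fold change -2.30, standard error 0.125, edgeR adjusted p = 4.2e-15). Among the feedback genes *SPRY4*, an inhibitor of ERK signaling, was at 384 and 382 CPM at D2 and 79.9 and 66.1 CPM in DE (log2 fold change -2.39, standard error 0.105, edgeR adjusted p = 4.3e-17), and the ETS factors *ETV1* (-1.82) and *ETV4* (-1.39) fell with it. The ERK phosphatase *DUSP4* was at 6.76 and 7.58 CPM at D2 and 115 and 97.4 CPM in DE (log2 fold change 3.89, standard error 0.128, edgeR adjusted p = 7.1e-20), and *DUSP5* (1.48), *FGFR4* (1.43), *FGF20* (1.57) and *SPRED2* (1.18) were called higher as well.

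In the Notch list 7 of 23 (30.4%) were called lower and 1 (4.35%) higher. The falls included the target *HES1* (-2.14), the receptor *NOTCH1* (-1.64), the ligand *JAG1* (-1.17) and *HEY1* (-1.47), and *HES4* (3.05) was the 1 higher call. In the Hedgehog list 4 of 14 (28.6%) were called lower and 2 (14.3%) higher. *GLI1* and *PTCH1*, the standard targets of Hedgehog signaling, were at 15.6 and 15.0 CPM at D2 and 2.56 and 2.44 CPM in DE for *GLI1* (log2 fold change -2.61, standard error 0.173, edgeR adjusted p = 3.4e-13), with a log2 fold change of -1.59 (standard error 0.141) for *PTCH1*. The ligand *IHH* was higher, with 1 count in each D2 library and 16 and 31 in DE, 22.6-fold (95% interval 5.91 to 192), and *HHIP* (2.52) was higher too, while *CDON* (-1.68) and *BOC* (-1.54) were lower. Retinoic acid genes had 7 of 17 called higher, led by the receptors *RARB* (3.55) and *RXRG* (2.75), *DHRS3* (2.32), *CYP26B1* (1.97) and *CRABP2* (1.91), and *STRA6* (-2.47), *RDH10* (-1.72) and *RARG* (-1.24) lower. Among 22 genes of the Hippo list *ANKRD1*, a target of the co-activator YAP, was at 21.7 and 15.4 CPM at D2 and 572 and 609 CPM in DE (log2 fold change 4.99, standard error 0.132, edgeR adjusted p = 1.2e-21). *AMOT* (4.28), *AMOTL2* (1.33) and *TEAD1* (1.19) were the other rises and *AXL* (-1.15) the only called fall. *HEY1* (-1.39 without DE replicate 2), *BOC* (-1.06 without DE replicate 2) and *AXL* (-0.88 without DE replicate 2) lost their calls with that library left out. *HEY1* (adjusted p = 0.071) and *BOC* (adjusted p = 0.11) were not called with DESeq2.

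Of 19 genes of epithelial and mesenchymal state tested 5 (26.3%) were called higher and 6 (31.6%) lower, with a median log2 fold change of 0.18, which was 0.092 without DE replicate 1 and 0.011 with upper-quartile scaling. *KRT19* was at 12.8 and 12.1 CPM at D2 and 129 and 131 CPM in DE (log2 fold change 3.38, standard error 0.111, edgeR adjusted p = 7.0e-20) and *KRT8* at 155 and 129.5 CPM at D2 and 651 and 691 CPM in DE (log2 fold change 2.24, standard error 0.109, edgeR adjusted p = 3.9e-16), with *KRT18* at a log2 fold change of 1.60. These are keratins of simple epithelia. *CDH1*, E-cadherin, was at 60.8 and 62.6 CPM at D2 and 19.2 and 15.0 CPM in DE (log2 fold change -1.85, standard error 0.114, edgeR adjusted p = 7.7e-14), whereas *CDH2*, N-cadherin, was at 65.9 and 69.5 CPM at D2 and 274 and 280.4 CPM in DE (log2 fold change 2.03, standard error 0.0953, edgeR adjusted p = 1.8e-16). The repressors of the epithelial state *ZEB2* (-3.95), *SNAI1* (-1.15) and *SNAI2* were lower, and so were the epithelial factors *GRHL2* (-2.18) and *OVOL1* (-1.19). Among 21 tight junction genes tested 5 were called higher and 3 lower. *CLDN3* (4.76), *CLDN18* (3.33), *CLDN19* (2.07), *OCLN* (1.27) and *TJP3* (1.21) were the rises, and *CLDN20* (-1.49) and *CLDN10* (-1.13) were among the falls. *OVOL1* (-0.94 without D2 replicate 1), *CLDN19* (1.53 without DE replicate 2), *TJP3* (0.99 without D2 replicate 2), *CLDN20* (-0.85 without D2 replicate 2) and *CLDN10* (-0.88 without DE replicate 1) lost their calls with that library left out. *OVOL1* (adjusted p = 0.066), *CLDN19* (adjusted p = 0.051) and *CLDN20* (adjusted p = 0.13) were not called with DESeq2.

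Matrix genes moved in both directions. Of 23 basement membrane genes 7 (30.4%) were called higher, led by the laminin *LAMA1*, at 32.0 and 33.5 CPM at D2 and 191 and 190.4 CPM in DE (log2 fold change 2.54, standard error 0.0997, edgeR adjusted p = 3.4e-18), and the type IV collagens *COL4A1* (2.39), *COL4A6* (2.09), *COL4A4* (1.89), *COL4A3* (1.85) and *COL4A2* (1.71). *FN1* (1.66) was higher as well, and *LAMC3* (-2.54), *NID2*, *HSPG2* (-1.31) and *LAMA3*, 11.8-fold (95% interval 3.71 to 60.1), were lower. Of the 22 other collagens tested 10 (45.5%) were called lower and 2 higher, *COL2A1* (2.67) and *COL21A1* (1.15). *COL6A1* (chromosome 21, 45981770 to 46005050), a chain of the microfibrillar type VI collagen, was at 242 and 252 CPM in PSC, 959.6 and 876 CPM at D2 and 198 and 201 CPM in DE (log2 fold change -2.20, standard error 0.106, edgeR adjusted p = 3.2e-16). *COL1A2* (-4.28), *COL13A1* (-2.75), *COL5A3* (-2.25) and *COL16A1* (-2.15) also fell, and *COL6A3* had 14 and 13 counts at D2 and 0 in DE, at least 4.69-fold lower. Integrins were mixed, with *ITGB8* (2.10), *ITGA6* (1.72) and *ITGAV* (1.02) higher and *ITGA1* (-2.90), *ITGA3* (-2.09), *ITGA7* (-1.51) and *ITGA9* (-1.40) lower. In the actin list 6 of 16 were called higher, among them *MYL9* (1.77), *TPM1* (1.51), *CNN1* (1.39) and the factor *SRF* (1.15), and *ACTG2* (-1.39) was lower. *COL21A1* (0.99 without D2 replicate 2) and *ITGAV* (0.96 without DE replicate 1) lost their calls with that library left out. *COL21A1* (0.98), *ITGAV* (0.85) and *SRF* (0.98) were not called with upper-quartile scaling.

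Of 24 listed genes of secreted plasma proteins 10 had enough counts to be tested, 7 of them called higher and 1, *AFP*, lower. *APOA2* (chromosome 1, 161222292 to 161223631), an apolipoprotein of high-density lipoprotein, was at 1.05 and 1.88 CPM at D2 and 74.6 and 88.5 CPM in DE (log2 fold change 5.79, standard error 0.182, edgeR adjusted p = 3.3e-20). *APOA1* (chromosome 11, 116835751 to 116837622), the main protein of that particle, had 5 and 1 counts at D2 and 251 and 339 counts in DE (log2 fold change 6.51, standard error 0.349, edgeR adjusted p = 3.3e-15), with a log2 fold change of 7.99 without D2 replicate 1 and 5.79 without D2 replicate 2. *APOE* was the most abundant member, at 57.7 and 46.9 CPM at D2 and 210.0 and 222 CPM in DE (log2 fold change 2.04, standard error 0.105, edgeR adjusted p = 1.3e-15), and *APOC1* (2.35), *APOB* (2.39) and *VTN* (2.74) rose too. *FGA*, the fibrinogen alpha chain, had 0 counts in both D2 libraries and 73 and 76 in DE, at least 23.9-fold higher. The liver genes *ALB*, *SERPINA1*, *APOH* and *FGB* had at most 3 counts in any of these libraries.

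Glycolysis genes had 7 of 24 (29.2%) called higher and 4 (16.7%) lower, and members of the same step went opposite ways. *SLC2A3* (chromosome 12, 7919230 to 8019007), the glucose transporter GLUT3, was at 315 and 338 CPM at D2 and 1385 and 1308 CPM in DE (log2 fold change 2.04, standard error 0.108, edgeR adjusted p = 2.4e-15), while *SLC2A1*, which encodes GLUT1, was at 55.3 and 50.9 CPM at D2 and 17.2 and 17.1 CPM in DE (log2 fold change -1.63, standard error 0.110, edgeR adjusted p = 5.6e-13). Among the phosphofructokinases *PFKL* (1.29) and *PFKM* (1.17) were higher and *PFKP* (-1.43) lower. *PKM* (1.52), *ENO2* (1.21), *TPI1* (1.19) and *PFKFB3* were called higher and *HK2* (-1.59) and *PFKFB2* (-1.36) lower. Hypoxia response genes had *VEGFA* (1.94), *ADM* (1.94), *EGLN3* (1.39) and *P4HA2* (1.07) called higher and *CA12* (-2.64) lower, of 15 tested. *PFKFB3* (0.94 without DE replicate 1) and *P4HA2* (0.72 without D2 replicate 1) lost their calls with that library left out. *PFKM* (just under 2-fold), *PFKFB3* (0.83) and *P4HA2* (0.90) were not called with upper-quartile scaling. *P4HA2* (adjusted p = 0.073) was not called with DESeq2.

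Cholesterol genes shifted down by small amounts. Of 25 genes 17 fell and 4 rose at an adjusted p under 0.05, against 29.3% and 30.0% of all genes, but 4 were called lower (16%) and 2 higher, with a median log2 fold change of -0.67. *INSIG1* (-1.78), a sterol sensor, *MVK* (-1.23) and *HMGCS1* (-1.02), enzymes of the mevalonate pathway, were among the called falls, and *EBP* (1.56) and *TM7SF2* (1.10) the called rises. In the fatty acid list *SCD5* (2.73) and *ELOVL2* (2.41) were higher and the regulator *SREBF1* (-1.46) lower. Amino acid transport and serine synthesis had *SLC38A4* (-4.32), *SLC1A3* (-2.71), *SLC7A8* (-1.74), *SLC1A2* (-1.33) and *PSAT1* (-1.11) lower and *SLC1A1* (1.17) higher. *HMGCS1* (-0.90 without D2 replicate 2), *SLC1A2* (-0.77 without D2 replicate 2) and *SLC1A1* (without D2 replicate 2) lost their calls with that library left out. *TM7SF2* (0.93) and *SLC1A1* (just under 2-fold) were not called with upper-quartile scaling.

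Few DNA replication and mitosis genes were called. Of 49 DNA replication genes edgeR called 1, *RPA1*, higher (log2 fold change 1.17 (standard error 0.0984)), and DESeq2 called 2 higher. Of the 49, 18 fell and 7 rose at an edgeR adjusted p under 0.05, against 29.3% and 30.0% of all genes. Of 45 mitosis genes *CENPE* and *PRC1* (-1.54) were called lower by edgeR and 0 by DESeq2, with a median log2 fold change of 0.01 over the list, which was -0.16 with upper-quartile scaling, 0.11 without DE replicate 1 and 0.12 without DE replicate 2. Of 26 regulators of G1 and the G1/S step 4 (15.4%) were called higher and 4 (15.4%) lower, shares near the background. They were *CDK6* (2.23), *CDKN2B* (2.52), *CDKN1B* (1.13) and *CDKN2C*, 24.0-fold (95% interval 6.30 to 204), higher and *E2F7* (-2.13), *CDKN1A* (-1.65), *CCND3* (-1.55) and *CCND1* lower. Of the 78 cytosolic ribosomal protein genes tested 0 were called by edgeR or DESeq2. At an adjusted p under 0.05, against 29.3% lower and 30.0% higher among all genes, 28 of the 78 fell and 8 rose (34 and 10 at an unadjusted p under 0.05). Their sum was 100720.0 and 90439.5 CPM at D2 and 73805 and 92638 CPM in DE, and their median log2 fold change of -0.20 was -0.03 without DE replicate 1 and -0.35 without DE replicate 2. Of 33 histone genes tested 20 (60.6%) were called lower and 0 higher by edgeR or DESeq2 (1 had an unadjusted p under 0.05), with a median log2 fold change of -1.32. *HIST1H2AC*, the most abundant of them at D2, was at 29.6 and 26.5 CPM at D2 and 4.81 and 6.43 CPM in DE (log2 fold change -2.32, standard error 0.151, edgeR adjusted p = 2.5e-13), and *HIST1H1C* rose by less than 2-fold (0.84). Histone genes are near-identical copies whose reads could be split among them, and most of their transcripts lack a poly(A) tail. *CENPE* (-0.95 without DE replicate 1), *PRC1* (-0.91 without DE replicate 1) and *CDKN1B* (0.93 without DE replicate 1) lost their calls with that library left out. *RPA1* (just under 2-fold) and *CDKN1B* (0.95) were not called with upper-quartile scaling. *CENPE* (-0.99) and *PRC1* (adjusted p = 0.074) were not called with DESeq2.

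Of 24 immediate-early genes tested 12 (50%) were called higher and 1 lower, with a median log2 fold change of 0.90, which was 0.53 without D2 replicate 2 and 0.59 without DE replicate 1. *ATF3*, a stress-induced transcription factor, was at 6.37 and 5.83 CPM at D2 and 49.6 and 43.9 CPM in DE (log2 fold change 2.94, standard error 0.139, edgeR adjusted p = 2.0e-16), and *KLF6* was at 33.7 and 35.4 CPM at D2 and 153 and 133 CPM in DE (log2 fold change 2.05, standard error 0.102, edgeR adjusted p = 6.2e-16). *FOSB* (3.37), *BTG2* (2.11), *EGR3* (1.69), *JUND* (1.44) and *EGR4*, with 0 and 3 counts at D2 and 13 and 12 counts in DE, were higher, and *JUNB* (-1.84) was lower. The unfolded protein and integrated stress list had *PPP1R15A* (2.29), *ATF3*, *DDIT3* (1.25), *CHAC1* (1.10) and *SEL1L* (1.04) higher and *PSAT1* and *ASNS* (-1.04) lower. Among 24 p53 targets *TP53INP1* (2.63), *BTG2*, *GADD45A* (1.44) and *CCNG1* were called higher and *GDF15* (-2.36), *FAS* (-2.32), *EDA2R* (-1.70), *CDKN1A*, *TNFRSF10B* (-1.35) and *RRM2B* (-1.15) lower. In the antigen presentation and interferon list 3 of 15 genes tested were called higher, among them *HLA-B* (1.33) and *IFITM3* (1.12), and 6 lower, *PSMB8*, 12.5-fold (95% interval 3.10 to 109), *TAP1*, 4.17-fold (95% interval 1.52 to 14.2), *IRF1* (-1.98), *TAP2* (-1.95), *TAPBP* (-1.14) and *B2M* (-1.12). *EGR4* (1.97 without D2 replicate 1), *CHAC1* (0.81 without DE replicate 1), *SEL1L* (0.86 without D2 replicate 1), *ASNS* (-0.78 without DE replicate 2), *HLA-B* (0.96 without D2 replicate 2), *IFITM3* (0.89 without DE replicate 2), *TAP1* (-1.69 without D2 replicate 2) and *TAPBP* (-0.95 without DE replicate 2) lost their calls with that library left out. *CHAC1* (0.92), *SEL1L* (0.87) and *IFITM3* (0.95) were not called with upper-quartile scaling. *EGR4* (adjusted p = 0.065) and *TAP1* (adjusted p = 0.10) were not called with DESeq2.

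**Figure D5:**
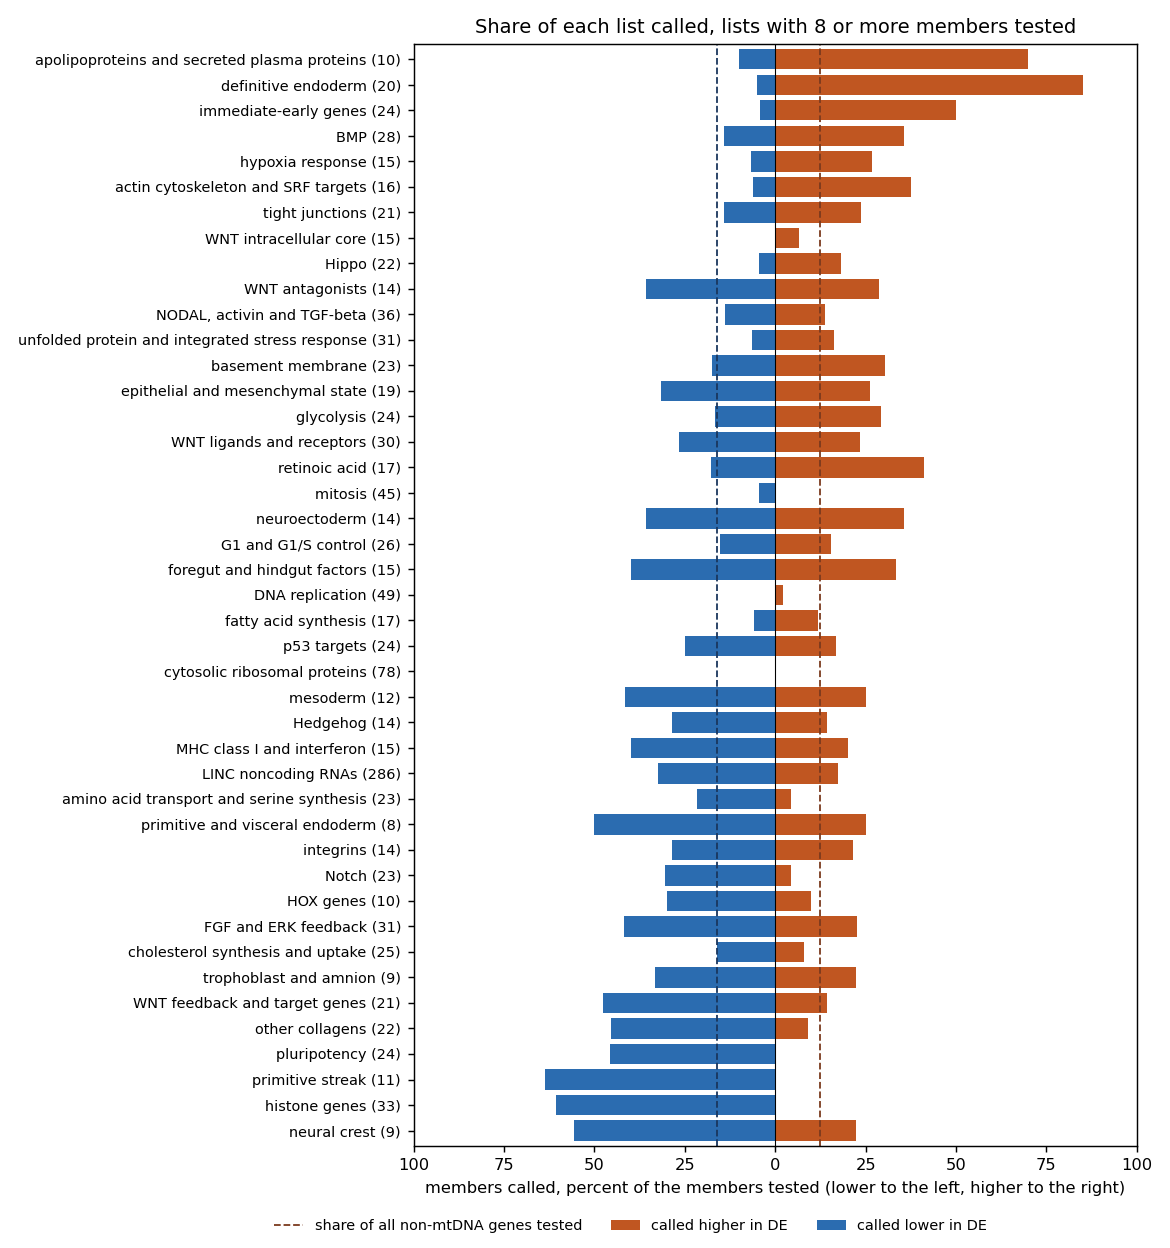
Members called higher (orange, right) and lower (blue, left) in DE, as a percent of the members tested, for the lists with 8 or more members tested, ordered by median log2 fold change with the number tested in brackets. Dashed lines mark the shares over all 18100 genes, 12.5% higher and 16.1% lower. Definitive endoderm, with 85% higher, and primitive streak, with 63.6% lower, lie far from those lines.

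Of the 10 largest rises by fitted fold change among called genes with separate stages and at least 10 CPM, *BMP5*, *HNF4A*, *PAX6*, *SOX21* and *APOA1* are given above. *S100A14* (chromosome 1, 153614255 to 153616986), a calcium-binding protein of epithelia, had 15 and 3 counts at D2 and 1621 and 1525 counts in DE and rose in both DE libraries, though its D2 libraries also differed from each other (log2 fold change 7.37, standard error 0.212, edgeR adjusted p = 4.5e-21), and without D2 replicate 1 or 2 its log2 fold change was 8.93 or 6.63. *CCDC141*, a centrosomal coiled-coil gene, had 4 and 7 counts at D2 and 935 and 867 counts in DE (log2 fold change 7.26, standard error 0.219, edgeR adjusted p = 1.3e-20). *SLC40A1*, ferroportin, the iron exporter of cells, had 3 and 5 counts at D2 and 400 and 367 counts in DE (log2 fold change 6.48, standard error 0.317, edgeR adjusted p = 4.6e-16). The noncoding *LINC02413* had 4 and 0 counts at D2 and 308 and 350 counts in DE (log2 fold change 7.22, standard error 0.358, edgeR adjusted p = 6.1e-16), with 6.25 when D2 replicate 2 was left out. Without D2 replicate 1 the remaining D2 library had 0 counts, so no fold change is given for that case. Among called genes the largest rises in CPM were *RGS5*, *SLC2A3*, *CCNG1*, *TMSB10* and *LINC00458*. *RGS5* (chromosome 1, 163111121 to 163321791), a regulator of G-protein signaling known from pericytes, was at 34.6 and 27.3 CPM in PSC, 34.5 and 41.2 CPM at D2 and 1926 and 1833 CPM in DE. It rose by far more than its libraries differed (log2 fold change 5.63, standard error 0.143, edgeR adjusted p = 6.0e-22). *CCNG1*, cyclin G1, and *TMSB10*, an actin-binding thymosin, were already abundant at D2 and rose, with log2 fold changes of 1.07 (standard error 0.113) and 1.26 (standard error 0.125), though with upper-quartile scaling *CCNG1* missed the 2-fold limit at 0.90.

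Among the 10 largest falls of called genes with separate stages and at least 10 CPM, *TBXT*, *DKK4*, *FGF4* and *FGF19* are given above. *TNS4* (chromosome 17, 40475828 to 40501623), a focal adhesion protein, was at 0.0876 and 0 CPM in PSC, 16.7 and 15.5 CPM at D2 and 0.244 and 0.129 CPM in DE (log2 fold change -6.36, standard error 0.318, edgeR adjusted p = 7.1e-16). *GRM4*, a metabotropic glutamate receptor, was at 17.1 and 18.3 CPM in PSC, 71.1 and 69.5 CPM at D2 and 1.40 and 1.22 CPM in DE (log2 fold change -5.73, standard error 0.161, edgeR adjusted p = 2.5e-21). *CACNA1G*, a T-type calcium channel, was at 15.8 and 16.9 CPM at D2 and 0.670 and 0.450 CPM in DE (log2 fold change -4.84, standard error 0.248, edgeR adjusted p = 1.2e-15). The unnamed transcripts *AC013287.1* (log2 fold change -4.94 (standard error 0.320), -4.35 without DE replicate 1 and -5.80 without DE replicate 2) and *AP000459.2* (-4.76 (standard error 0.229)) completed this group with *MT1E*. In CPM and among called genes, *SNHG14* (chromosome 15, 24978583 to 25420336), a long noncoding RNA that hosts small nucleolar RNAs and runs antisense to *UBE3A*, fell most and was at 1292 and 1563 CPM at D2 and 409 and 364 CPM in DE, and its reads cannot be assigned to a strand here. *NTS*, the gut peptide neurotensin, was at 48.9 and 50.4 CPM in PSC, 456 and 477 CPM at D2 and 23.8 and 47.3 CPM in DE, with the DE libraries further apart than those of most genes (log2 fold change -3.72, standard error 0.169, edgeR adjusted p = 8.7e-17). *IVNS1ABP* was at 231 and 225 CPM in PSC, 979 and 1020.1 CPM at D2 and 447 and 503 CPM in DE (log2 fold change -1.07, standard error 0.106, edgeR adjusted p = 1.2e-09), so that it fell while staying above its PSC level, and without DE replicate 1 it missed the 2-fold limit at -0.97.

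Metallothionein genes, small cysteine-rich proteins that bind zinc and copper, were looked at as a family after *MT1E* appeared among the largest falls, so their common direction was seen before the family was chosen and no test of it is given. Symbols of 15 metallothionein genes and pseudogenes had a count, 9 were tested, and all 9 were called lower, with a median log2 fold change of -3.76. *MT2A* (chromosome 16, 56608584 to 56609497) was at 107 and 125 CPM in PSC, 83.8 and 94.3 CPM at D2 and 5.60 and 7.53 CPM in DE. Its D2 libraries lay somewhat below its PSC libraries and its DE libraries far below both (log2 fold change -3.76, standard error 0.136, edgeR adjusted p = 5.9e-19). *MT1X* was at 63.3 and 67.7 CPM at D2 and 4.44 and 7.08 CPM in DE (log2 fold change -3.51, standard error 0.145, edgeR adjusted p = 1.1e-17), *MT1E* at 55.3 and 67.5 CPM at D2 and 1.58 and 2.57 CPM in DE (log2 fold change -4.89, standard error 0.175, edgeR adjusted p = 4.5e-19), and *MT1F* at a log2 fold change of -2.55 (standard error 0.154). *MT1G* was 49.8-fold (95% interval 21.0 to 155) lower, with 132 and 107 counts at D2 and 2 and 3 in DE. *MT1L*, *MT1M*, *MT1JP* and *MT1H* also had at most 3 counts in each DE library. These genes are close copies in a cluster on chromosome 16, and reads that fit several of them could have been split or dropped. *MT1L* (-1.59 without D2 replicate 2) and *MT1JP* (-2.44 without DE replicate 1) lost their calls with that library left out. *MT1JP* (adjusted p = 0.058) was not called with DESeq2.

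The bases before *MT2A* and *MT1X* are shown because these genes moved together and both hold matches to an element. The stretches are the 250 bases before the start in RefSeq (GRCh38.p14), at chr16:56608334-56608583 for *MT2A* and chr16:56682220-56682469 for *MT1X*, both on the plus strand, 5′ to 3′. Capitals mark TGCACNC or TGCGCNC, or their reverse complements, the core of the metal response element bound by the zinc-sensing factor MTF1.
MT2A: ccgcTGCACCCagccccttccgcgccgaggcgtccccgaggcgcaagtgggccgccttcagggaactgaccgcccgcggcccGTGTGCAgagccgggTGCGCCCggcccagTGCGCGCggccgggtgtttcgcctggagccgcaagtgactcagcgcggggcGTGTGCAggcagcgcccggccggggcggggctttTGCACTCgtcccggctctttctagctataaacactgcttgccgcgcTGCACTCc
MT1X: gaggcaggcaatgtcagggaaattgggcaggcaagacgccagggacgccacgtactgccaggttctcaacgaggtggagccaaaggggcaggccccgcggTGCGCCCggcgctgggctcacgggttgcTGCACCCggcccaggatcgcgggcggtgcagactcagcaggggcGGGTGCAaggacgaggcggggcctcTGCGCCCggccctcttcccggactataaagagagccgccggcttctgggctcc
*MT2A* had 7 matches, the nearest to the start at 8 and 54 bases, and *MT1X* had 4, the nearest at 53 and 78 bases. *MT1H*, the third member with an entry, had 8. On either strand TGCACNC occurred in 9.87% and TGCGCNC in 16.8% of the 35116 promoters of that length, and 24.8% held at least 1 of them. *MT1E*, *MT1F*, *MT1G*, *MT1M* and *MT1L* have no entry in the table used.

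Among LINC genes 93 of 286 tested (32.5%) were called lower and 50 (17.5%) higher, with a median log2 fold change of -0.36 (-0.08 with no filter on low counts), and among genes with clone-based symbols, most of them unnamed transcripts, 657 of 2334 (28.1%) were called lower and 278 (11.9%) higher. Among all genes with a mean under 10 CPM at both stages 25.1% were called lower and 12.4% higher, and among those with a mean of 1 to 3 CPM at the higher stage 30.4% and 14.9%, so these shares are near those of genes at low levels and are not read as particular to noncoding RNAs. *LINC00458* (chromosome 13, 53950255 to 54270397) was the most abundant LINC gene in DE, at 15.0 and 9.97 CPM in PSC, 410.4 and 420.1 CPM at D2 and 1236 and 1420.1 CPM in DE (log2 fold change 1.68, standard error 0.121, edgeR adjusted p = 2.4e-12). *LINC00261* (chromosome 20, 22547663 to 22578642), which lies beside *FOXA2*, was at 7.94 and 11.2 CPM at D2 and 306 and 277 CPM in DE (log2 fold change 4.93, standard error 0.138, edgeR adjusted p = 2.5e-21). Of the 39 HOX genes 10 had enough counts to be tested, of which 1, *HOXD13* (1.90), was called higher and 3 lower, among them *HOXA13* (-3.39) and *HOXB1*. The HOX genes summed to 37.9 and 41.4 CPM at D2 and 35.0 and 30.6 CPM in DE, against 12.8 and 12.9 CPM in PSC.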

How the data were processed

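The authors aligned the reads to GRCh38 with HISAT2 2.1.1 and assigned them to genes with featureCounts, per the labels and the study's methods. The deposited values are these raw counts per gene for 59050 symbols, 1 column per library, with gene lengths. The annotation, the strand setting and the treatment of reads that map to several places are not given in the sources used here. Column names gave the stage of each library, with 2 libraries in each of the 3 stages.

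The counts were fitted jointly over the 6 libraries with edgeR 4.0.16 in R 4.3.3 (filterByExpr by stage, TMM, glmQLFit, glmQLFTest, two-sided), with Benjamini-Hochberg adjustment over 18126 genes and 3 residual degrees of freedom. The PSC libraries added to the estimate of the spread. mtDNA-encoded genes stayed in the fit and were left out of the description. Counts were also simulated with the same spread for every gene and no difference outside a small set of changed genes. Of 192 changed genes 169 passed an edgeR adjusted p of 0.05 among 17277, with 5 unchanged ones. In the data 59.3% of genes differed and the spread was not the same at each stage, so these figures give no error rate for the calls. With 2 libraries a stage the smallest two-sided exact permutation p is 0.333. TPM, computed from counts and lengths, was used to compare levels between genes. Positions are from GENCODE version 44.

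Genes and lists were chosen with earlier results of these data known. Named are CXCR4, SOX17 and PAX6, the 10 largest rises and falls among called genes with separate stages and at least 10 CPM, the 5 largest rises and falls in CPM among called genes, and the called or defining members of each list. Genes of the Y chromosome were left out, and some genes that this rule would name are not reported here. Other genes (the metallothioneins, AXIN2, SP5, NODAL, FST, LINC00261 and members named for values near 0) were named after their values were seen. Alternatives were other scalings, filters and call rules, DESeq2 1.42.0, the D2 and DE libraries alone, a replicate block and each library left out. Python 3.11.15 with pandas 2.3.3 and matplotlib 3.10.9 were used for summaries and figures.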

Additional observations from a re-analysis of the deposited data

How the results depend on the processing

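Over all non-mtDNA genes the count of calls kept within 1.5 times of 5164 under every other scaling, with no filter on low counts (5880), with DESeq2's Wald test (4335), with the D2 and DE libraries alone (5007) and without each library in turn (4793 to 5463 called, 2153 to 2391 higher and 2581 to 3072 lower). Where 1 library of a stage was left out, the lone library was assumed to vary like the other stages. Asking for at least 10 counts in every D2 and DE library left 3081 called, 1441 higher and 1640 lower, since genes near 0 at 1 stage were removed. With no fold limit there were 10740, 5432 higher and 5308 lower. The study's rule on TPM + 0.1 called 2089 higher and 1507 lower, 2891 of its 3596 genes also called by edgeR in the same direction and 0 in the opposite one. With a pseudocount of 1 it called 2726, 1635 higher and 1091 lower. With TPM scaled without mtDNA-encoded genes it called 2202 higher and 3543 lower, among 17775 genes in place of 13405. Upper-quartile scaling gave 1785 higher and 3557 lower. 

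Replicate numbers are shared between stages, but same-numbered D2 and DE libraries did not move together (correlation across genes of their deviations from the stage means -0.0621), so no pairing was used. With the replicate number as a block 5067 genes were called, 2227 higher and 2840 lower, and of the 325 genes named *CLDN20*, *FOXC1*, *INHBE* and *WNT8A* lost their call.

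Of the 325 named genes 269 stayed on the same side of the call, or of an adjusted p of 0.05 where not called, in every setting that gave a value and 0 reversed. DESeq2 lost 21 calls, among them *WNT3A*, *WNT8A*, *TBX6*, *SOX3*, *PRC1*, *LMO2* and *MT1JP*. Upper-quartile scaling lost 18, all of them rises whose log2 fold change dropped under 1, such as *EPCAM*, *SMAD6*, *SRF* and *RPA1*. Leaving out 1 library lost the call of 49 genes in at least 1 case and the adjusted p under 0.05 of *NES* (0.17 without D2 replicate 1 and 0.070 without DE replicate 1). Without D2 replicate 1 the calls of *AMN*, *BOC*, *EGR4*, *FOXC1*, *HEY1*, *INHBE*, *ITGAV*, *LMO2*, *MT1JP*, *OVOL1*, *P4HA2*, *PAX8*, *SEL1L*, *TBX6* and *WNT3A*, and without D2 replicate 2 those of *ASNS*, *BOC*, *CENPE*, *CLDN20*, *COL21A1*, *GDF7*, *HLA-B*, *HMGCS1*, *INHBE*, *LHX1*, *MT1L*, *PFKFB3*, *PRC1*, *SLC1A1*, *SLC1A2*, *SOSTDC1*, *TAP1*, *TGFB2*, *TJP3* and *WNT8A* were lost. Without DE replicate 1 they were those of *AMN*, *CDKN1B*, *CENPE*, *CHAC1*, *CLDN10*, *CLDN20*, *FOXC1*, *GDF3*, *GDF7*, *HEY1*, *HMGCS1*, *INHBE*, *ITGAV*, *IVNS1ABP*, *MT1JP*, *OVOL1*, *PAX8*, *PFKFB3*, *PRC1*, *SEL1L*, *SHISA2*, *SMAD6*, *SNAI2*, *TAP1*, *TGFB2*, *WNT3A* and *WNT8A*, and without DE replicate 2 *AMN*, *ASNS*, *AXL*, *BOC*, *CLDN19*, *CLDN20*, *HEY1*, *IFITM3*, *INHBE*, *LHX1*, *LMO2*, *MT1L*, *OVOL1*, *P4HA2*, *PAX8*, *PROX1*, *SOX3*, *SP8*, *TAP1*, *TAPBP*, *TBX6*, *TPBG*, *WNT3A* and *WNT8A*. Without either PSC library *BOC*, *CENPE*, *CLDN20* and *INHBE* lost it. Medians of the 45 lists moved by more than the spread between libraries in 138 of 675 cases, 25 of them under upper-quartile scaling.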
